A study of Homo sapiens with 2 samples.

Results

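Strong repeated 3′ UTR peaks are the stretches of the untranslated end of messenger RNAs that carried many reads in both libraries of this series. A peak row was taken when it held 50 or more reads, overlapped by at least 1 nt on the same strand a row of the other library that also held 50 or more, and had its summit in a 3′ UTR and in no coding sequence (CDS) of the gene it was listed under. Rows on small RNA genes and on genes whose symbol starts with MTRNR2L, which are nuclear copies of mitochondrial ribosomal RNA, were left out. This gave 301 of 100792 rows in replicate 1 (0.299%) and 325 of 109413 rows in replicate 2 (0.297%), which merged into 271 regions in 207 genes. The regions were chosen by their read counts, which are given below as a description and not as a finding.

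The series held 2 small-RNA libraries, both labelled TRACER. Their RNA came from HEK293T, a widely used cell line of human embryonic kidney origin. The cells were grown with 10% serum and had received doxycycline at 3 ug/mL for 24 hours before cytoplasmic RNA was extracted with Trizol. Doxycycline often serves as the inducer of a transgene. The labels name none and do not spell out TRACER, and no input, untreated or control library was analysed here. A count of reads at a site can therefore not be told apart from the amount of the messenger RNA. Whether the replicates came from separate cultures is not stated, so their spread may be technical.

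The series asked which stretches of RNA are associated with CCR4-NOT, the complex that shortens poly(A) tails and so starts the decay of many messenger RNAs. CCR4-NOT has little sequence preference of its own and is brought to its targets by adaptors, among them Pumilio proteins, proteins that bind AU-rich elements, and the microRNA machinery through the TNRC6 proteins. Most known binding sites of these adaptors lie in 3′ UTRs. Pumilio proteins bind an element written UGUANAUA, in which N is any base, and its first bases, UGUA, are the part that varies least.

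Pumilio elements were present at several of the strongest regions. The lines below show 30 nt of the RNA, 5′ to 3′, from GENCODE transcripts on GRCh38, for the strongest regions with 1 element in the 51 nt around the summit and for each region with several. Capitals mark the letters of Pumilio elements, and an element that runs past the end of the line is cut.
BBC3, chr19:47220904-47220933, minus strand: auaugcgcugcUGUAGAUAccggaaugaau
ATF4, chr22:39522621-39522650, plus strand: gucaaugugcuUGUACAUAgagugcuguag
SLC38A2, chr12:46358692-46358721, minus strand: ccauauguauuUGUAAAUAgguUGUAUAUA
SLC38A2, chr12:46358312-46358341, minus strand: uauuaacuuugUGUAUAUAgUGUAAAUAuc
PTP4A1, chr6:63582371-63582400, plus strand: aguguuuggauUGUAUAUAuggugcuaaaa
H1F0, chr22:37807202-37807231, plus strand: guguguguuugUGUAUAUAuacauaucuag
JUN, chr1:58781427-58781456, minus strand: ccaguguuguuUGUAAAUAagagauuugga
TFAP2A, chr6:10397681-10397710, minus strand: uuaaugggaauUGUAAAUAuggugagucug
HES1, chr3:194138414-194138443, plus strand: ugcacuauauuUGUAUAUAuuuuauauguu
TM2D3, chr15:101641950-101641979, minus strand: guagucuggucUGUAUAUAugaaaauuuga
NFKBIA, chr14:35401566-35401595, minus strand: ccuguaaauggUGUACAUAauguauuguug
TBX1, chr22:19767263-19767292, plus strand: caUGUAGAUAcUGUAGAUAcUGUAGAUAcc
SLC38A1, chr12:46183994-46184023, minus strand: cuucauuuguaUGUAAAUAuuauUGUAAAU
PCNA, chr20:5115138-5115167, minus strand: AUAuuguuuucUGUAAAUAaccuauuuuuu

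Other leading regions held, within the same window around the summit, the UGUA core without the full element, or neither. CSNK1E is shown as holding neither, but a full element, UGUAAAUA, begins upstream of its window. The next lines show the 30 nt around the summit of the strongest regions of each kind, and capitals mark UGUA.
TSPAN3, chr15:77046094-77046123, minus strand: auaaUGUAcccaUGUAgacuagcaaaauag
HNRNPA2B1, chr7:26191883-26191912, minus strand: uuuaagugcgugUGUAgaguuaagaagcug
FOXC1, chr6:1612622-1612651, plus strand: uuuaauuUGUAguuggaugucguggaccaa
H3F3B, chr17:75778548-75778577, minus strand: ggcguuuUGUAguaaauucUGUAaaauacu
CSNK1E, chr22:38290717-38290746, minus strand: uuugagcuuuaucgugguuguuaauuugaa
HIST2H3C, chr1:149840728-149840757, minus strand: agcgggcuuaagaaguggcgguucggccgg
ACTG1, chr17:81510313-81510342, minus strand: cugaucugugcaggguauuaacgugucagg
NPM1, chr5:171410794-171410823, plus strand: auaggacauaguaguagcgguggucagaca

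The strongest region of all lay in BBC3, which encodes the pro-apoptotic protein PUMA. It held 229 reads in replicate 1 and 344 in replicate 2, and its summit lay 779 nt after the stop codon and 98 nt before the transcript end. These reads made up 55.2% ± 0.351 (SD, n = 2) of all peak reads of BBC3, so more of the gene's signal lay in this region than in all its other peaks. Its element began on the summit base itself, and the summits called in the libraries were 1 nt apart.

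ATF4, the transcription factor that carries out the integrated stress response, had 2 adjoining regions in a 3′ UTR of 81 nt. The one 40 nt after the stop codon held 239 and 278 reads, and the one 17 nt after it held 153 and 201. The windows of both share the same Pumilio element, so they are not independent examples of it. Together they cover most of the 3′ UTR, and ATF4 also had CDS peaks of 50 or more reads, 3 in replicate 1 and 6 in replicate 2.

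The amino acid transporter SLC38A2 had 2 regions, each with 2 Pumilio elements. The region 2407 nt after the stop codon held 183 and 212 reads, and the one 2786 nt after it, 136 nt from the transcript end, held 112 and 145. No CDS peak of SLC38A2 reached 50 reads in either library. The related transporter SLC38A1 also had a region with 2 elements, with 61 and 71 reads.

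Among regions without a full Pumilio element in the summit window, that of TSPAN3, a tetraspanin membrane protein, held 229 and 269 reads. The region of HNRNPA2B1, an RNA-binding protein of the hnRNP family, held 213 and 243, but this was only 5.32% ± 0.106 of the gene's peak reads, since its CDS carried 25 and 28 rows of 50 or more reads. FOXC1, a forkhead transcription factor, had 209 and 223 reads, with summits 51 nt apart between the libraries. CSNK1E, a casein kinase of the circadian clock and WNT signalling, had 185 and 241 reads 40 nt before the transcript end.

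HIST2H3C and HIST2H3A, 2 copies of the gene for histone H3, both had 202 and 203 reads just after the stop codon, 4 and 2 nt past it. Their 30 nt around the summit occur in both genes, so the same reads may be counted at each copy. The same holds for the 4 FAM72 genes, where 3 copies held 89 and 121 reads each and FAM72D held 86 and 111. In all, 29 of the 271 regions had 30 nt around the summit that also stood in a transcript of a gene elsewhere, and 242 did not.

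The remaining regions among the 20 strongest came from genes of varied kinds. The transcription factors ZNF703 and JUN had 164 and 200, and 154 and 208 reads. The phosphatase PTP4A1 had 147 and 210, with its summit 2206 nt after the stop codon. The cytoplasmic actin ACTG1 had 174 and 172, the nucleolar chaperone NPM1 had 160 and 172, and the histone H3.3 gene H3F3B had 125 and 192. All of these except ACTG1 had more reads in replicate 2.

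RNPS1, a splicing factor that joins exon junction complexes, had 138 and 171 reads 32 nt before its transcript end. DDIT4, an inhibitor of mTORC1 signalling induced by stress, had 107 and 218 in its strongest region. HMGB2, a chromatin protein, had 168 and 131. NFKBIA, the inhibitor that holds NF-kappa-B in the cytoplasm, had 118 and 175, 24 nt after the stop codon. HMGB2 was thus the region among these 4 with more reads in replicate 1.

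**Figure D1:**
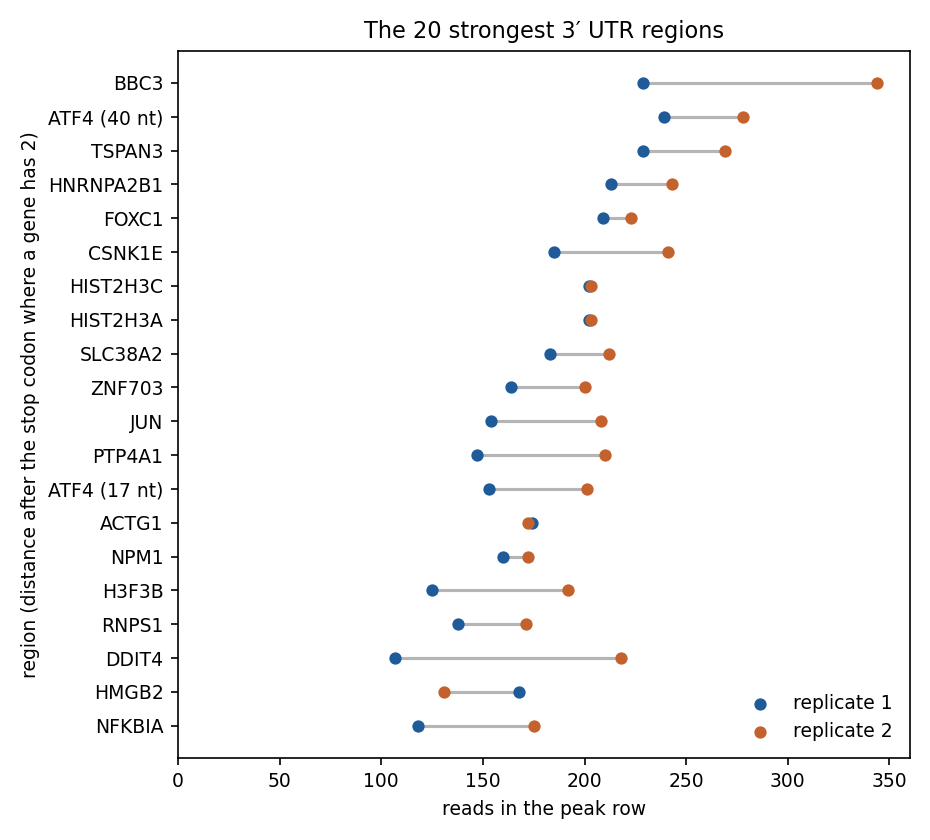
Reads of the 20 strongest regions in replicate 1 (blue) and replicate 2 (orange), ordered by the geometric mean of both; the horizontal axis starts at 0 and a grey line joins the 2 libraries. BBC3 reaches 344 reads in replicate 2, DDIT4 has the widest gap in proportion, and ACTG1 and HMGB2 are the ones with more reads in replicate 1.

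Just inside the threshold stood ANP32B with 50 and 50 reads, LSM8 with 54 and 50, TARDBP with 50 and 61, and a further ACTG1 region with 73 and 50. Just outside were regions of HNRNPA0 with 49 and 82 reads, ARPP19 with 49 and 68, RNF187 with 49 and 61, HES5 with 49 and 61, and HOXB6 with 49 and 58. There is no gap in reads at the threshold. Of the 271 regions, 172 had fewer than 100 reads in both libraries, 54 had 100 or more in both, and 7 had 200 or more in both.

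The libraries were close to each other at these regions once their totals were taken into account. Replicate 2 had more reads in 184 regions and replicate 1 in 80, and the median ratio of replicate 2 to replicate 1 was 1.13. After division by the reads of all repeated 3′ UTR regions the median ratio was 1.0. Past a 2-fold difference in the scaled reads stood 2 of the 271 regions, beside 12.6% of all 11847 repeated 3′ UTR regions. By the smaller of the 2 read counts, the share past 2-fold was 21.6% at 3 to 4 reads, 13.6% at 5 to 9, 5.30% at 10 to 19 and 1.45% at 20 to 49. The rule asked for many reads in both libraries, so the count of 2 describes the members and does not test them.

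The regions that differed most were those of the histone H4 genes HIST2H4A, with 127 and 52 reads, and HIST2H4B, with 96 and 52, which had scaled ratios of 0.361 and 0.477. These genes share their summit sequence, and their summits were 39 and 33 nt apart between the libraries. A region listed under the read-through gene SENP3-EIF4A1 followed with 155 and 96 reads, then the DDIT4 region with 107 and 218, whose scaled ratio was 1.80, and a region of SRP9, a signal recognition particle protein, with 83 and 54. Apart from DDIT4 these had relatively more reads in replicate 1.

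**Figure D2:**
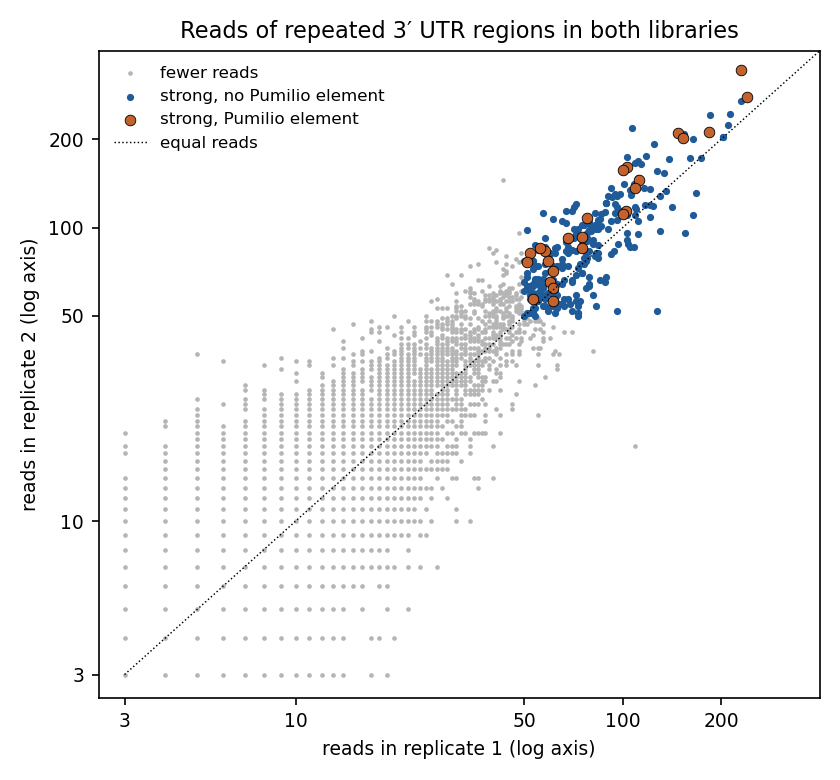
Reads in replicate 1 and replicate 2 (log axes) of the 271 strong regions, in orange with and in blue without a Pumilio element in the summit window, and of the 11576 repeated regions with fewer reads in grey; the dotted line marks equal reads. Strong regions fill the upper right corner by construction, and the 2 blue points farthest below the line are HIST2H4A and HIST2H4B.

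The rule asked that rows overlap but did not compare their summits, and in most regions these were close to each other. In 227 regions (83.8%, exact 95% interval 78.8 to 87.9) the summits of the libraries were at most 5 nt apart, and the median distance was 2 nt. Among the 11576 repeated 3′ UTR regions with fewer reads, which were made by the same steps from a minimum of 3 reads, the share was 59.4% (58.5 to 60.3) and the median 4 nt. By the smaller of the 2 read counts, the share was 52.3% at 3 to 4 reads and 74.4% at 20 to 49. A summit rests on the reads counted, and these sets differ in reads. The intervals here and below cover counting error only, and regions of 1 gene are not independent.

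Most genes had a single strong region, 170 of 207, and 27 had 2. DDIT4 had 3 regions with 107 and 218, 111 and 168, and 103 and 174 reads, at 421, 52 and 212 nt after the stop codon.

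HNRNPA2B1, SRP9 and HEY1, a repressor downstream of Notch, also had 3 regions each. The further ones of HNRNPA2B1 held 121 and 109, and 79 and 83 reads. Those of SRP9 held 130 and 128, 79 and 63, and 83 and 54, and those of HEY1 116 and 136, 58 and 75, and 54 and 56. ZNF703, JUN and ACTG1 had 5 each. The 5 regions of JUN, a subunit of the AP-1 transcription factor, held 154 and 208, 127 and 156, 100 and 157, 78 and 96, and 62 and 82 reads, spread from 134 to 639 nt after the stop codon. Of these, the window at 639 nt had a Pumilio element.

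A set of 20 regions had a summit that is CDS of another gene on the same strand, and these are not 3′ UTR sites in the usual sense. SENP3-EIF4A1, a read-through of neighbouring genes, accounts for 10, all in the CDS of the translation initiation helicase EIF4A1, and AP002990.1 for 7, all in the CDS of the elongation factor EEF1G. SERF2, AL049650.1 and AP000350.4 had 1 each, in the CDS of HYPK, SNRPB and MIF. In 21 regions the 3′ UTR came from a transcript not annotated as plain protein-coding, and 19 of them belong to this set. Without these regions 251 remained in 202 genes. In 8 regions the reads of a library stand in a row listed under another, overlapping gene.

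The Pumilio element occurred in the summit window of 25 of the 271 regions, 9.23% (exact 95% interval 6.06 to 13.3), beside 6.88% of the regions with fewer reads, and the interval takes in that background. Windows of the same length centred 100 nt upstream and downstream were taken, here and below, only where they stayed in the 3′ UTR. This left 204 and 221 windows, of which 4.41% and 4.07% held the element. Of all 51 nt windows of the 3′ UTRs of 5456 genes 1.23% did. By the smaller of the 2 read counts, the share was 5% at 3 to 4 reads, 7.04% at 5 to 9, 8.10% at 10 to 19 and 9.11% at 20 to 49. Within the strong regions it was 20.4% (10.6 to 33.5) of the 54 with 100 or more reads in both libraries and 6.45% (3.57 to 10.6) of the other 217. The difference between these was not tested, and their intervals meet at 10.6%.

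The UGUA core alone was far more common. It was in the window of 154 regions, 56.8% (50.7 to 62.8), beside 45.7% of regions with fewer reads, 33.3% and 37.1% of the windows upstream and downstream, and 24.1% of all 3′ UTR windows. The interval of the strong regions lies above each of these values. Among regions with fewer reads the share was 40.3% at 3 to 4 reads and 55.4% at 20 to 49, and the last of these is inside that interval. Of the 20 regions in the CDS of other genes 1 held UGUA, and without them the share was 61.0%. Counted by copies, 77 windows held UGUA 1 time, 49 held it 2 times, 21 held it 3 times and 7 held it 4 times.

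**Figure D3:**
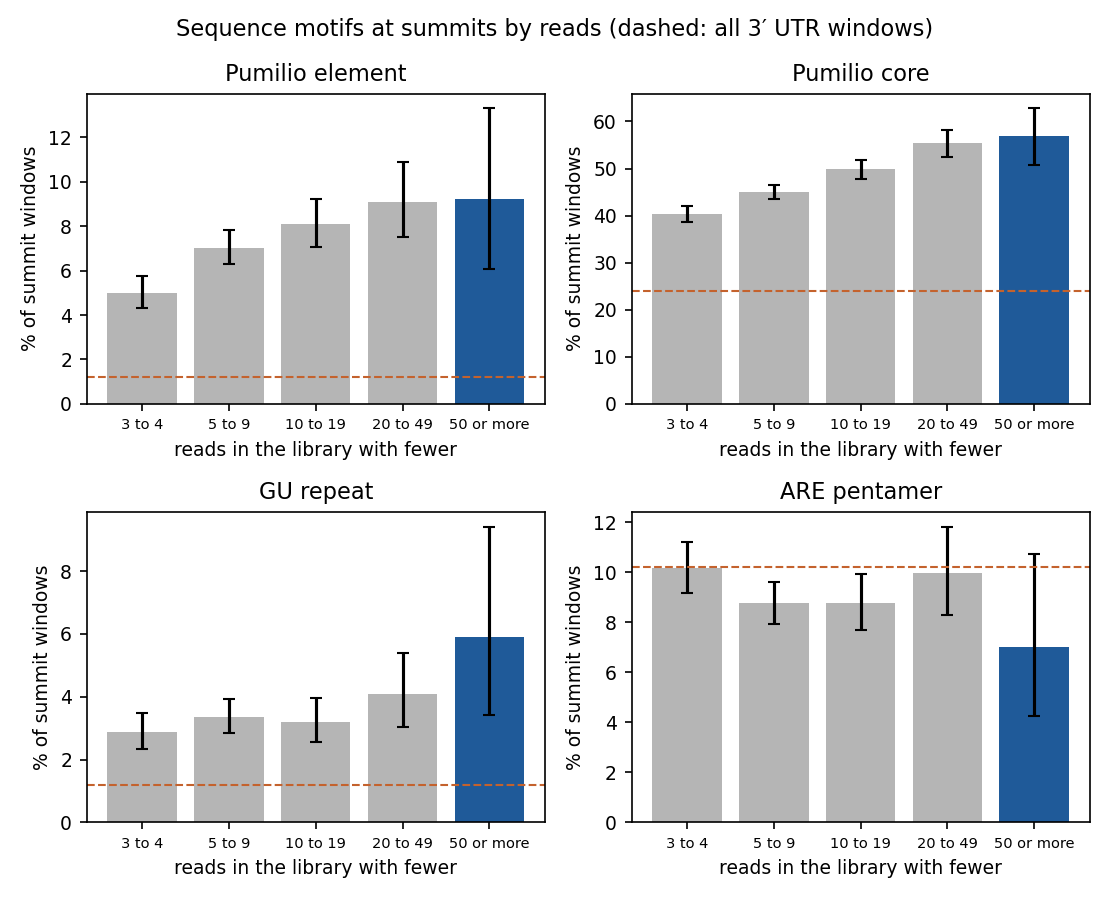
Percent of 51 nt summit windows with the Pumilio element, its UGUA core, the GU repeat or the AU-rich pentamer (vertical axes, from 0) by the reads in the library with fewer (horizontal); grey bars are regions with fewer reads, blue bars the 271 strong regions, whiskers exact 95% intervals and dashed lines all 3′ UTR windows. The core goes from 40.3% to 56.8% across the bars, and all bars of the AU-rich pentamer lie below their dashed line.

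The 25 windows held 32 elements at 31 different positions, since the ATF4 windows share one. Of the 32, 25 (78.1%) lay at least in part within 10 nt of the summit, 10 covered the summit base, and the median element began 4 nt before it. The windows reach only 25 nt to each side, which limits these distances, so they are a description. By the base at N, 31.3% had A, 28.1% G, 21.9% U and 18.8% C. In all 3182 elements of the 3′ UTRs searched, G made up 9.84%. The 4 elements of the TBX1 region all had G at N, so the share of G rests in part on 1 region.

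**Figure D4:**
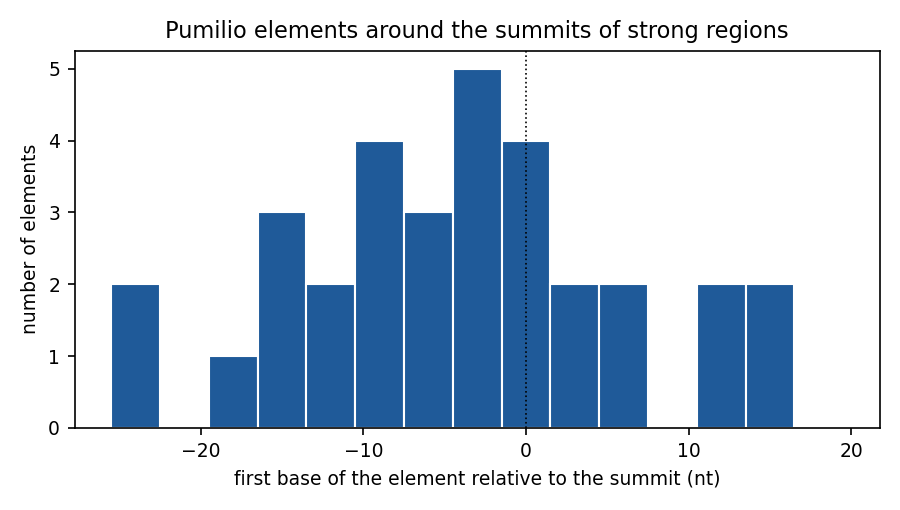
Number of Pumilio elements (vertical axis) by the distance in nt of their first base from the summit (horizontal axis, negative before the summit), for the 32 elements in the windows of strong regions. They begin between -25 and 15 nt, with the median at -4.

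TBX1, a T-box transcription factor of development, had 4 elements in a row, with 78 and 108 reads that made up 69.3% ± 9.15 (SD, n = 2) of its peak reads, 63 nt before the transcript end. PCNA, the sliding clamp of DNA replication, had 2 elements, with 52 and 82 reads. The linker histone H1F0 had 103 and 161 reads, the developmental factor TFAP2A 109 and 136, and HES1, a repressor downstream of Notch, 102 and 114. TM2D3, a membrane protein, had 100 and 111. The NFKBIA region with an element was not its strongest: it held 75 and 93 reads 59 nt before the transcript end, and together with the region near the stop codon it makes 2 strong sites at opposite ends of a 3′ UTR of 502 nt.

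Regions with a Pumilio element lay further along the 3′ UTR. Their median relative position was 0.810 (0 is the stop codon and 1 the transcript end), beside 0.40 in the 246 without one. Beyond 0.75 of the 3′ UTR were 15 of 25, or 60% (exact 95% interval 38.7 to 78.9), beside 20.7% (15.8 to 26.3) of those without. Of all Pumilio elements in the 3′ UTRs of the same genes, 35.1% (27.0 to 43.9) of 131 lay there, and of the regions with fewer reads that held an element, 33.3% (30 to 36.7). This pattern was noted after its values were seen and was not tested.

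The GU repeat UGUGUGU, bound by CELF proteins and TARDBP, was in 16 windows, 5.90% (3.41 to 9.41), beside 3.25% of regions with fewer reads and 1.17% of all windows. The strongest regions with it were those of ATF4 at 40 nt after the stop codon, HMGB2, H1F0, the nucleolar methyltransferase FBL, with 124 and 118 reads, and TFDP1, the partner of E2F factors, with 98 and 130. Of these, HMGB2 and H1F0 are shown because the repeat is longer there than the motif searched, and capitals mark it.
HMGB2, chr4:173332030-173332059, minus strand: cguguggaaUGUGUGUGUGUgcucaggcaa
H1F0, chr22:37807192-37807221, plus strand: cugugugcaUGUGUGUGUuuguguauauau

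The form GGACU of the consensus for N6-methyladenosine (m6A), a common mark of messenger RNA, was in 24 windows, 8.86% (5.76 to 12.9). This is close to the 9.40% of regions with fewer reads and above the 3.74% of all windows. The strongest regions with it were those of CSNK1E, JUN at 134 and 262 nt, NFKBIA at 24 nt, and the inducible chaperone gene HSPA1B, with 134 and 153 reads, whose window held it 3 times. No measurement of methylation was analysed here. Capitals below mark GGACU.
HSPA1B, chr6:31829909-31829938, plus strand: gguGGACUguugGGACUcaaGGACUuugcu
NFKBIA, chr14:35401972-35402001, minus strand: cugaaagaacauGGACUuguauauuuguac

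The reversed Pumilio element AUANAUGU, kept as a control of the same base composition, was in 6 windows, 2.21% (0.817 to 4.76), beside 1.45% with fewer reads and 0.799% of all windows. Strongest among them was a region of AZIN1, an inhibitor of antizyme, with 96 and 117 reads, then the splicing regulator HNRNPA1 with 105 and 86, a further region of AZIN1 with 84 and 106, TBX1, and the transporter-like MFSD14B with 56 and 85. In TBX1 and MFSD14B the match overlaps a Pumilio element. AU-rich elements were not more common at strong regions: the pentamer AUUUA was in 7.01% (4.27 to 10.7), beside 9.30% with fewer reads and 10.2% of all windows. The C-rich element CCUCCC, bound by PCBP proteins, was in 0 of 271 windows, which allows a share of up to 1.11% (3 counts of 271; the exact 95% interval reaches 1.35%), beside 0.838% with fewer reads and 3.11% of all windows. The poly(A) signal AAUAAA was in 5.54% of windows and in 14% of those 100 nt downstream. The difference between these was not tested, and no share over all windows is given beside it.

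In base composition the summit windows differed from the RNA beside them. C made up 13.2% of the bases in the windows of the strong regions, 14.8% with fewer reads, 19.2% and 17.8% 100 nt upstream and downstream, and 20.3% of whole 3′ UTRs. G made up 26.2%, 25.8%, 21.5%, 20.9% and 21.3% in the same order, and U made up 34.7%, 32.9%, 32.2%, 33.8% and 31%. The 271 summit windows thus held more G and less C than the 204 windows upstream and the 221 downstream. Regions close to an end of the 3′ UTR lack a window on that side. Such windows were not measured for regions with fewer reads. Among hexamers found in 20 or more strong regions outside the CDS of other genes, GUGUAU had the highest ratio to regions with fewer reads, 2.36. It was followed by AUGUAG with a ratio of 2.27. The next, UGUAGA, was in 39 regions, 15.5% beside 7.07%. Each of them contains UGUA. These were picked for their ratio and support nothing further.

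Of 26 microRNAs looked up, 24 were matched in the RefSeq table for GRCh38.p14. Of the 24, 21 were listed as expressed in embryonic kidney lines or broadly, and 3 as known for other tissues. The expression of microRNAs was not measured here. A match to bases 2 to 8 of any of the 21 was in 24 windows, 8.86% (5.76 to 12.9), beside 11.5% of regions with fewer reads and 8.33% and 7.24% of windows upstream and downstream. The interval takes in each of these values. The microRNAs known for other tissues are not in this count. Of the 21, 9 had a site in no strong region, among them let-7a, miR-21, miR-92a and miR-221.

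The miR-101 site had the most regions, 5 of 271, 1.85% (0.602 to 4.25), beside 1.21% with fewer reads and 0.356% of all windows. They lay in DDIT4, with 103 and 174 reads, SINHCAF, a subunit of a histone deacetylase complex, with 92 and 105, C1orf52 with 61 and 58, PPTC7, a mitochondrial phosphatase, with 56 and 61, and RBBP7, a histone-binding protein, with 53 and 51. In 4 of these the site began within 5 nt of the summit. In all 5 the match overlaps a UGUA, which by itself was in 56.8% of strong windows and 24.1% of all windows. The share of this site can therefore not be told apart from that of the UGUA core. Capitals mark the seed of the microRNA, bases 2 to 8, and its match in each site.
miR-101-3p: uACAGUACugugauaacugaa
DDIT4, chr10:72275385-72275414, plus strand: cauaccccucaGUACUGUagcaugaaacaa
SINHCAF, chr12:31280704-31280733, minus strand: gccuguaggauGUACUGUauguagucaugc
C1orf52, chr1:85252259-85252288, minus strand: uauauuguaauGUACUGUgaacuuguaggg
PPTC7, chr12:110535465-110535494, minus strand: uuugugaauuuGUACUGUauauuugaguaa
RBBP7, chrX:16844862-16844891, minus strand: ugagcuguugcGUACUGUaucauauuguag

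The place of strong regions along the 3′ UTR varied widely. Their median relative position was 0.431, beside 0.419 with fewer reads. Within 50 nt of the stop codon were 33 regions, 12.2% (8.53 to 16.7), beside 6.25% (5.81 to 6.70), and within 100 nt of the transcript end were 41, 15.1% (11.1 to 20), beside 10.9% (10.3 to 11.5). Among regions with fewer reads, these shares were 5.17% and 8.99% where the smaller count was 3 to 4. At 20 to 49 they were 8.86% and 13.5%, which are inside the intervals of the strong regions. Of the 54 regions with 100 or more reads in both libraries, 13 lay within 50 nt of the stop codon and 12 within 100 nt of the end. The 3′ UTRs themselves were shorter, with a median of 1198 nt, beside 1943 nt for regions with fewer reads, and in a short 3′ UTR more bases lie near an end.

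**Figure D5:**
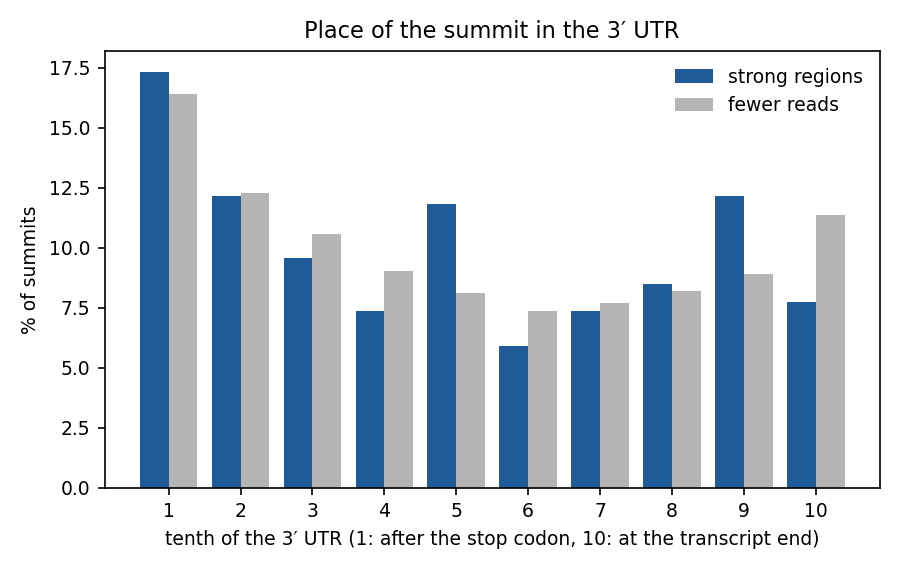
Percent of summits (vertical axis, from 0) in each of 10 equal parts of the 3′ UTR (horizontal axis, stop codon at left, transcript end at right) for the 271 strong regions in blue and the 11576 with fewer reads in grey. Both sets are highest in the part next to the stop codon, with 17.3% and 16.4%, and in the part at the transcript end the strong regions are lower, with 7.75% and 11.4%.

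In their windows the strong regions had a median GC content of 39.2%, and the predicted folding energy had a median of -6.2 kcal/mol, and both medians were the same with fewer reads. The lowest energy was -18.1 kcal/mol. The merged regions had a median width of 67 nt, but a width also depends on the reads and on merging over libraries.

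A strong region held a median of 17.8% of its gene's peak reads in replicate 1 and 16.7% in replicate 2, beside 10.2% and 9.38% for regions with fewer reads. Over 50% was held by 19 of 271, 7.01% (4.27 to 10.7), beside 2.76% (2.47 to 3.07) with fewer reads. Reads chose the strong regions, so these shares are a description. Besides BBC3, TBX1 and NFKBIA, the 19 were found in TDG, SIAH1, DNAJB4, MND1, TMA7, RPS27, STK4, MEX3D, MSX1, ALKAL1, PPTC7, ZNF428, LPCAT4, DIRAS1, NCOA6 and AC010422.3, a list chosen after its values were seen. SIAH1, a ubiquitin ligase, had 100 and 158 reads, 65.5% ± 9.90 (SD, n = 2) of its peak reads. Of the 207 genes, 114 had no CDS row of 50 or more reads in either library, 79 had one in each, and 7 had no CDS row at all. Few rows of any kind reached 50 reads, 3235 of 100792 in replicate 1 and 3629 of 109413 in replicate 2. No such counts are given here for genes without a strong region, so these describe the members only.

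Among the genes with a repeated 3′ UTR region, 3.79% (207 of 5456) had a strong one, and 16 gene lists were set beside that share. The shares follow reads, and with no input library they cannot be told apart from the abundance of the messenger RNAs. Of 12 CCR4-NOT subunits 7 had a repeated region and 0 a strong one. Of 26 adaptor genes with a repeated region 3 had a strong one, among them PUM2, with 71 and 92 reads, and BTG1, an antiproliferative protein that binds the deadenylases, with 78 and 90.

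Stress and transport genes were represented by 7 of 21 genes. Besides ATF4, SLC38A1, SLC38A2 and DDIT4 these were the neutral amino acid transporter SLC1A5, with 50 and 77 reads, the unfolded protein response factor XBP1, with 67 and 104, and HERPUD1, a protein of endoplasmic reticulum degradation, with 76 and 79. Of the immediate early and AU-rich genes 4 of 19 had one: JUN, JUND, with 90 and 99 reads, IER5, with 72 and 120, and ID3, with 55 and 67. Of cell cycle genes 5 of 35 did, led by the CDK inhibitor CDKN1B with 67 and 89 reads, the importin KPNA2 with 70 and 66, and PCNA. The others were CDK1 and E2F3.

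Several lists of nuclear and housekeeping genes also had a share above 3.79%, and differences between lists were not tested. Of the nuclear chaperone and chromatin list 10 of 21 had a strong region, with NPM1, H3F3B and HMGB2 in front, and of hnRNP and SR proteins 11 of 35, with HNRNPA2B1 and then SRSF5, which had 95 and 120 reads. For heat shock and folding it was 5 of 21, led by HSPA1B and by HSP90AB1, with 136 and 133 reads in one region and 82 and 112 in another whose summit lies in the stop codon. Of the housekeeping list 5 of 19 had one, led by ACTG1 and EIF4A2, which had 96 and 128 reads.

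Of 26 cytosolic ribosomal protein genes with a repeated 3′ UTR region 10 had a strong one. RPL39 led with 164 and 110 reads, followed by RPS24 with 121 and 119 and RPL38 with 109 and 117. Of their 11 regions, 8 had the summit within 50 nt of the stop codon, beside 33 of all 271 strong regions and 6.25% of regions with fewer reads. The lengths of their 3′ UTRs were not set beside this count, and in a short 3′ UTR more bases lie near the stop codon. The abundance of these messenger RNAs was not measured here.

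In each of the other lists 3 genes or fewer had a strong region. Sterol and fatty acid synthesis had 3 of 24, with the fatty acid ligase ACSL3 at 78 and 92 reads, the desaturase SCD at 63 and 59 in the stronger of its regions, and INSIG1, which retains the sterol sensor in the endoplasmic reticulum, at 53 and 57. Nuclear transport had 3 of 18, with KPNA2, the importin IPO7 at 56 and 63 and RANBP1 at 55 and 59. Developmental transcription factors had 2 of 25, FOXC1 and SOX4, whose regions held 70 and 114, and 65 and 105 reads. Ubiquitin and deubiquitination had 1 of 26, USP22, at 51 and 68. The 25 genes of TGF-beta, BMP and WNT signalling and the 4 of iron homeostasis had 0.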

How the data were processed

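The 2 libraries of HEK293T cells were analysed from 1 peak list each, as the authors deposited them. Per the submitters' processing notes, cutadapt 4.2, UMI-tools 1.1.4, STAR 2.7.11 and GRCh38 were used. The names of the deposited lists name CLIPper and filters on alignment score, mismatches and multimapping (5). CLIPper's version was not given in the sources used here, nor its annotation. In the deposited lists the score is a p-value per peak, at most 3.26e-10 for the regions here and used for no selection. Each peak name ends in a whole number of reads, at least 3, not normalised. Reads can be counted in several rows, genes and loci, so the depth of the libraries is unknown. The sums over rows were 1624759 and 1704789 reads.

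Gene models and transcript sequences came from GENCODE 29 and microRNAs from RefSeq. A summit is the middle of the deposited summit interval. Overlapping member rows were merged, and each library's row with the most reads gave the region's reads. The row with the most reads in either library gave its gene and summit. Windows of 51 nt were taken from 1 spliced transcript per region: protein-coding type first, then the longest CDS, then the longest transcript. Motifs of 14 kinds and 24 microRNA sites were searched on the RNA strand. Positions are 1-based on GRCh38. Folding used ViennaRNA 2.7.2. Intervals are exact (Clopper-Pearson) at 95%. There is 1 group without a control, so no test was made. The overlap search, the motif search and the window shares were tested on simulated rows and sequences. The merging of rows and the choice of reads and summit were not part of these tests.

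The members, motifs and lists were chosen with earlier results of these data known. Named are the 20 strongest regions, the 5 nearest above the threshold, the 5 that differed most between libraries, genes with 3 or more regions, regions with 2 or more Pumilio elements and the 10 strongest with 1. Also named are the 5 strongest with each other motif found in 5 or more regions and at 1.5 times its share of all windows, and the 3 strongest of each list. Alternatives varied the read minimum, overlap, window, transcript and libraries. The values of 1 gene that these rules name are not reported here.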

Additional observations from a re-analysis of the deposited data

How the results depend on the processing

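The number of regions depends on the read minimum: it was 271 at 50 reads, 748 at 30 and 54 at 100. Replicate 2 alone gave 487 and replicate 1 alone 333, so leaving out a library gave 333 to 487. It was 269 when an overlap of at least 50% of the shorter row was asked for. With small RNA genes and MTRNR2L symbols both kept it was 285. Outside the CDS of other genes it was 251, an alternative chosen after seeing the data. The share with a Pumilio element, 9.23%, was 14.8% in the longer windows, of 50 nt on either side, which hold more bases, and 20.4% at 100 reads. In the 7 other settings it lay within its interval, with 9.91% to 11.7% for 1 library alone. The share with a microRNA site, 8.86%, was 16.6% in the longer windows and 4.06% when an A opposite base 1 was asked for, and 8.42% to 9.01% for 1 library alone.

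The median relative position, 0.431, was 0.457 with the longest 3′ UTR, 0.403 at 30 reads, 0.351 at 100 reads, 0.423 with 1 region per gene, 0.410 outside the CDS of other genes and 0.417 to 0.423 for 1 library alone. The median GC content, 39.2%, was 38.7% in windows of 31 nt, 37.6% in the longer windows, and 37.3% at 30 reads, at 100 reads, with 1 region per gene, outside the CDS of other genes and for 1 library alone (37.3% to 37.3%). The cause of these shifts was not tested. No paired analysis was possible because the result comes from no test. The 2 libraries of a single group allow no comparison of conditions, and shares over 25 regions have wide intervals.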
